A study of Homo sapiens with 8 samples.

Results

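The m6A peaks of control MIAPaCa-2 cells that lie in noncoding exons were examined. MIAPaCa-2 is an established line of epithelial pancreatic cancer cells. A peak was included when its summit fell in an annotated exon of any gene but in no untranslated or coding part of a basic protein-coding transcript, basic being the GENCODE tag for the main set of transcript models. No cut-off on fold or q value was applied. Of the 2298 control peaks outside the mitochondrial chromosome, 242 met this rule (10.5%, 95% Wilson interval 9.34 to 11.9%), against 1255 in coding exons, 673 in introns and 128 between genes.

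The 242 peaks fell into 4 main classes. There were 94 peaks in pseudogenes, 93 in exons that belong only to noncoding or non-basic transcripts of coding genes, 33 in long noncoding RNAs (lncRNAs) and 20 in small structured RNAs. The 2 remaining peaks lay in an antisense gene and in ENSG00000279133, a gene model still to be experimentally tested. Where exons of several classes covered a summit, the small RNA was taken first, then the pseudogene, the lncRNA and the coding gene. This order decided the class for few peaks, since 22 summits lay in exons of more than 1 gene.

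The cells carried an shRNA-Control or an shRNA-METTL3 construct. For each condition there was 1 m6A library, made from total RNA fragmented to about 100 nt and precipitated with an antibody against m6A, and 1 input library from the RNA set aside before precipitation. Libraries were made with the TruSeq stranded mRNA kit without the oligo-dT step, so RNAs without a poly(A) tail could enter them. Each library had been run on 2 lanes (8 samples, 4 groups), and the lanes were read here as repeat runs of the same library. No difference between conditions therefore has a replicate check and none was tested.

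N6-methyladenosine is written into RNA by the METTL3-METTL14 complex, which recognises the 5-letter motif DRACH, where D is A, G or T, R is A or G, and H is A, C or T, with the methylated A in the third place. Several lncRNAs are known to carry the mark. Pseudogenes are copies of genes, and processed pseudogenes arose from reverse-transcribed mRNA, so their sequence stays close to the mature mRNA of the parent gene. The 7SL RNA is the RNA part of the signal recognition particle, 7SK RNA holds the elongation factor P-TEFb in an inactive complex, and H/ACA small nucleolar RNAs (SNORA genes) guide the change of uridine to pseudouridine.

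The DRACH site nearest to the summit is shown for the peaks with the highest fold in each class, to let the motif and its surroundings be read beside the values that follow. Each line gives 29 nt of the GRCh37 (hg19) reference on the strand of the host gene, 5′ to 3′, with the motif in capitals. In small structured RNAs the sites were in RN7SL4P at chr3:15780146-15780174 (plus strand), in RN7SL3 at chr14:50320480-50320508 (minus strand) and in RN7SL5P at chr9:9442184-9442212 (plus strand). These 3 sites had the same letters.
RN7SL4P: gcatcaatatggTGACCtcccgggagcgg
RN7SL3: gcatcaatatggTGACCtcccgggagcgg
RN7SL5P: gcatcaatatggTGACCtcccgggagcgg
The motif lay 13 nt downstream of the summit in RN7SL4P, 3 nt upstream in RN7SL3 and 14 nt downstream in RN7SL5P. On the host strand, no DRACH motif lay within 50 nt of the summits of RN7SL674P and RN7SL128P, the peaks with the highest folds among small RNAs.

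Among pseudogenes the sites were in RPL4P3 at chr1:171653452-171653480 (minus strand), in RPL17P7 at chr1:109535426-109535454 (plus strand) and in KRT8P37 at chr10:8556627-8556655 (minus strand). RPS3AP6 and RPS27P19 had none on the host strand.
RPL4P3: accagatattgtGAACTttgttcacacca
RPL17P7: ctgaagaaacaaAAACTtatggcacggga
KRT8P37: ggcggcagctggAGACTctaggccaggag
Among lncRNAs they were in ENSG00000289378 at chr19:33667517-33667545, in SNHG17 at chr20:37060640-37060668 and in ENSG00000260035 at chr15:45492588-45492616, all on the minus strand. The peaks in ENSG00000270103 and ENSG00000270066 had no motif on the host strand.
ENSG00000289378: ctcagcctgagaAGACCcggggccctgcc
SNHG17: caggaagcaggtGGACCatggtgttctat
ENSG00000260035: acggcattgtgaGGACAatggcacggcaa
Among coding genes the sites were in MRPL17 at chr11:6704007-6704035 (minus strand), in NUP107 at chr12:69126361-69126389 (plus strand), in GNAS at chr20:57473027-57473055 (plus strand) and in PAXX at chr9:139887209-139887237 (plus strand). The peak in NPRL2 had no motif on the host strand.
MRPL17: tgggaagctgggAGACActaacgaacgag
NUP107: tctttaaaaaaaAAACTctgatattcctt
GNAS: ttaaatttgcctTAACTctctgcgggctg
PAXX: ctatggggcgacAGACAtctgggattccc

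The peaks rested on few fragments. The pileup, the number of fragments at the summit after the peak caller kept at most 1 read per position, was 1 in 139 of the 242 peaks (57.4%, 51.1 to 63.5%), 2 in 64, 3 in 23 and 4 or more in 16 (6.61%). Every peak with a pileup of 1 had the same fold of 2.0 over the input and the same −log10 q of 2.93, because the peak caller adds a pseudocount of 1. The control m6A library held 2242358 reads at only 7920 distinct positions, and the control input 2880835 reads at 9291 positions, or 310 reads per position. The METTL3-KD m6A library held 1252805 reads at 4508 positions and the METTL3-KD input 1337448 reads at 52141 positions, or 25.7 reads per position. Intervals below cover counting error only. METTL3 itself had 0 reads in all 4 input lanes, so the labels could not be checked against it.

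Pileup differed between classes. A pileup of 1 was found in 72 of 94 pseudogene peaks (76.6%, 67.1 to 84.0%), in 18 of 33 lncRNA peaks (54.5%, 38.0 to 70.2%), in 40 of 93 peaks of coding genes (43.0%, 33.4 to 53.2%) and in 8 of 20 peaks of small structured RNAs (40%, 21.9 to 61.3%). The share was 45.9% (43.2 to 48.7%) in coding exon peaks, 57.4% in intron peaks and 74.2% (66.0 to 81.0%) in intergenic peaks. The interval of the pseudogene peaks thus lay above that of the coding exon peaks and overlapped that of the intergenic peaks. These intervals treat each peak as separate, although many pseudogene peaks have nearly the same sequence as another place, as given below. A pileup of 10 or more occurred in 5 of the 242 peaks and in 1 of the other 2056 control peaks, and the 5 were all in 7SL genes.

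**Figure D1:**
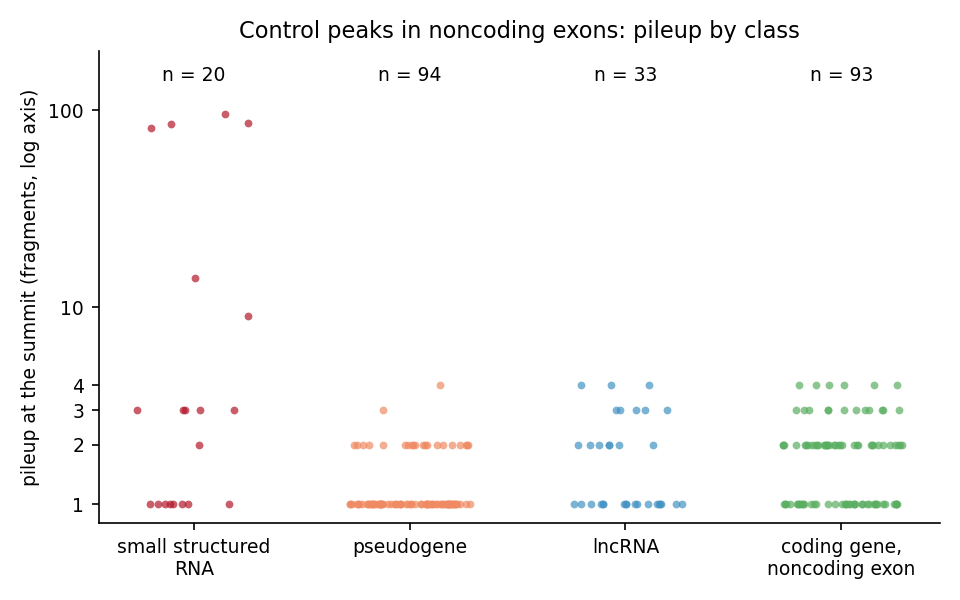
Pileup at the summit (fragments, log axis) of each control peak in a noncoding exon, by class, with 1 point per peak, spread sideways for visibility. The 6 highest points, at 9 to 96 fragments, are peaks in 7SL genes, and no peak of the other 3 classes exceeds 4 fragments.

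The 7SL genes held the highest pileups of the 242 peaks. Over the whole control list, 1 intron peak with a pileup of 89 stood between the first and the second of them. RN7SL2 (chr14:50329358-50329517) had a pileup of 96, RN7SL3 (chr14:50320444-50320573) of 86, RN7SL5P (chr9:9442091-9442218) of 85 and RN7SL4P (chr3:15780066-15780191) of 81. Their folds over input were 3.33, 4.82, 4.01 and 5.29. RN7SL674P had a pileup of 14 with a fold of 8.10, the highest fold of the 242 peaks, and RN7SL128P had a pileup of 9 with a fold of 5.4. RN7SL597P and RN7SL507P had a pileup of 1 each. The peaks with a pileup of 9 or more were linked to each other by near-identical copies, so the reads of these genes cannot be assigned to 1 copy with certainty. In the input, the control lanes counted 59807 and 61274 reads for RN7SL2 and the METTL3-KD lanes 26720 and 27355. All 847 annotated 7SL genes and copies together took 7.73% of the control input counts and 7.80% of the METTL3-KD input counts.

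The other small structured RNAs had low pileups. Among the snoRNAs, SNORA63, SNORA77 and SNORA48 had a pileup of 3, SNORA80B of 2 and SNORA74B of 1. SNORA63 (chr3:186505117-186505328) had 0 input reads in both control lanes and 80 and 98 in the METTL3-KD lanes, and SNORA74B had 0 against 35 and 41. Of the 20 small RNA summits, 7 lay in an intron of a coding gene on the same strand, whose unspliced transcript holds the same sequence. MIR1236, a microRNA precursor, and RNU7-49P, a copy of the U7 snRNA that takes part in histone mRNA processing, each had a pileup of 3 and at most 1 input read. The RNU7-49P summit lay at 99.2% of the gene's 62 nt, and the peak of 104 bp reached beyond the gene. RN7SKP36 and RN7SKP230, both 7SK copies, VTRNA2-1, a noncoding RNA named with the vault RNAs, and 2 genes annotated as Y_RNA had a pileup of 1. No control peak lay in an exon of the RNA gene RMRP, and no gene named RPPH1 was matched in the annotation.

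The lncRNA peaks were spread over 31 genes. The highest pileup, 4 with a fold of 5.0, was reached in ENSG00000270103 (chr1:28975117-28975224), in ENSG00000289378 (chr19:33667476-33667581) and in SNHG17 (chr20:37060646-37060751), a snoRNA host gene. A pileup of 3 was found in MIR222HG, the host transcript of miR-221 and miR-222, in ENSG00000270066, in ENSG00000264701, in ENSG00000274629 and in ENSG00000260035. Of the 32 snoRNA host genes matched, 4 held a peak: SNHG17, and SNHG1, SNHG4 and SNHG7 with a pileup of 2 each. Of 19 matched nuclear and other well-known lncRNAs, only NORAD and OIP5-AS1 did. NORAD, which binds PUMILIO proteins, held 3 peaks, the most of any host gene, each with a pileup of 1 and placed at 55.4%, 90.3% and 98.2% of the transcript's length from the 5′ end. OIP5-AS1 held 1 peak with a pileup of 1. MALAT1, a nuclear lncRNA known to carry m6A, and NEAT1, the RNA scaffold of paraspeckles, held no control peak in an exon. They had 10529 and 1332 control input reads. Peaks were called over this input, so the lack of a peak does not show that the mark was absent. TERC, the RNA template of telomerase, held 1 peak with a pileup of 1. In 30 of the 33 lncRNA peaks the summit lay in the last exon of the transcript, and 13 of the 33 transcripts had a single exon.

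In coding genes the peaks lay mostly in exons of transcripts annotated as retained-intron models. Where several transcripts of the host held the summit, a basic one was assigned first, then the longest. How common retained-intron models are among all noncoding exons of coding genes was not counted. The transcript assigned to the summit was annotated as a retained intron in 69 of 93 peaks, as a non-basic protein-coding transcript in 10, as a transcript without a defined coding region in 8 and as a target of nonsense-mediated decay in 6. Of the 93 summits, 86 lay within the span of a basic coding transcript of the same gene, so a fragment of that unspliced pre-mRNA would map to the same place. Of the 93 host genes, 18 also held a control peak in a coding exon, among them HNRNPC, NONO, PRMT5, AKT2 and MACF1. The highest pileup was 4, with a fold of 5.0, in 6 genes. These were MRPL17, a mitochondrial ribosomal protein, NUP107, a subunit of the nuclear pore, GNAS, the stimulatory G protein alpha subunit, NPRL2, a subunit of the GATOR1 complex that restrains mTORC1, PAXX, a factor of DNA end joining, and SSR4, a subunit of the translocon-associated protein complex. A pileup of 3 was found in 12 genes, among them CASP8, the initiator caspase of death receptors, STAT2, a transcription factor of interferon signalling, ORC2, a subunit of the origin recognition complex, and AKT2, a kinase of insulin signalling.

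Pseudogene peaks were mostly in processed pseudogenes. Of the 94 peaks, 76 lay in genes annotated as processed pseudogenes, and 29 lay in 26 pseudogenes of ribosomal proteins out of 1512 annotated. RPL4P3 (chr1:171653446-171653548) had a pileup of 4 and RPS3AP6 (chr15:60061114-60061304) of 3. A pileup of 2 was found in RPL17P7, RPS27P19, RPL13AP24, RPL13AP20, RPS27AP16, RPL13AP7 and RPL10P3. The peaks in RPS3AP11, RPS27AP5, RPL37AP8, RPS27P3, RPL10P12, RPL7AP62, RPS18P12, RPL21P121, RPS15P4, RPS27P4, RPS15P5, RPS3AP21, RPS18P9, RPL32P18, RPS27P17, RPS3AP25 and RPS10P3 had a pileup of 1. Second peaks with a pileup of 1 were also present in RPL4P3, RPS3AP6 and RPL17P7, and FTH1P8 and GAPDHP65 held 2 such peaks each. None of the 449 annotated mitochondrial pseudogenes held a peak.

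The sequence of 86 of the 94 pseudogene peaks (91.5%, 84.1 to 95.6%) had a near-identical copy elsewhere, meaning at least 95% identity over at least 75% of the peak, in the genome or in a transcript of another gene. For 27 of them an identical copy existed in the genome. Near-identical copies were found for 9 of 20 small RNA peaks (45.0%, 25.8 to 65.8%), 7 of 33 lncRNA peaks (21.2%, 10.7 to 37.8%) and 5 of 93 coding gene peaks (5.38%, 2.32 to 12%). Over all 242 peaks the share was 44.6% (38.5 to 50.9%), against 9.56% (8.06 to 11.3%) of coding exon peaks, 17.7% of intron peaks and 53.1% (44.5 to 61.6%) of intergenic peaks. The largest number of genome copies was 37, for HNRNPA1P20.

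**Figure D2:**
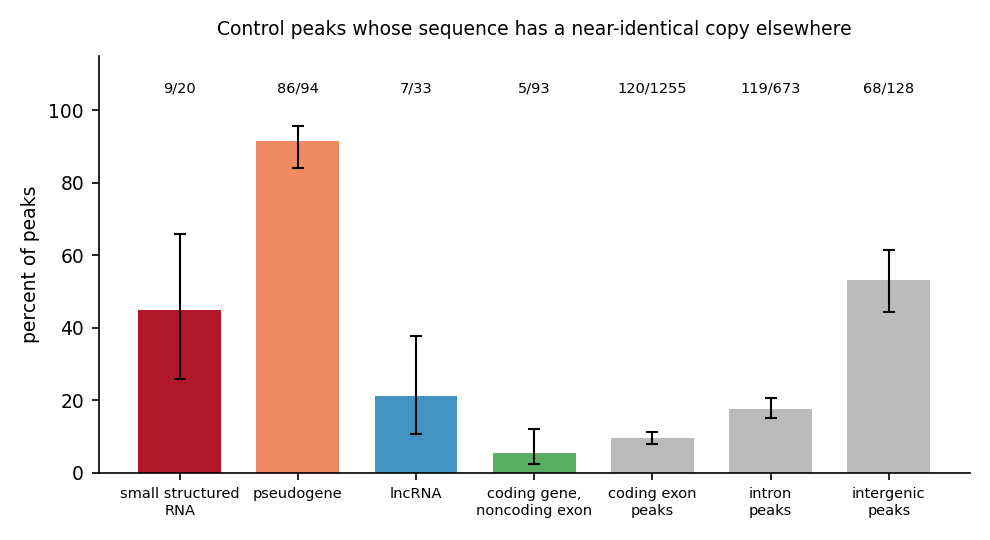
Percent of control peaks whose sequence has a copy with at least 95% identity over at least 75% of the peak elsewhere, for the 4 classes in noncoding exons (coloured) and for the other control peaks (grey), with 95% Wilson intervals and the counts above each bar. The pseudogene bar stands at 91.5% and the coding gene bar at 5.38%.

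For 79 of the 94 pseudogene peaks a transcript of a protein-coding gene outside the host was a near-identical match. The closest such match had a median identity of 99.0%, and 100% for 18 peaks. Only coding genes entered this choice, so a closer match in a noncoding gene or elsewhere in the genome was not excluded. In 62 of the 79 the pseudogene's symbol began with that of the matched gene. The matched genes included RPS3A with 5 peaks, EEF1A1, the translation elongation factor, and RPS27 with 4 each, and RPL13A, RPS15, RPS18 and HNRNPA1L2 with 3 each. Of the 51 distinct matched genes, 29 had at least 10 control input reads and 21 had none, and 17 also held a control peak in a coding exon.

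Copies often held peaks of their own. A near-identical copy in the genome existed for 41.7% of the 242 peaks, and 59 of these (58.4%) had a copy that overlapped another control peak, against 35.9% of the 117 coding exon peaks, 70.6% of the 119 intron peaks and 79.1% of the 67 intergenic peaks with such copies. For 20 pseudogene peaks the copy lay under a coding exon peak. Joined by such links, 45 of the 242 peaks formed 16 groups of 2 to 6 peaks, so the 242 peaks stood for 213 distinct sequences. The largest groups were the 6 peaks of 7SL genes, the 5 of HNRNPA1 pseudogenes (HNRNPA1P20, HNRNPA1P25, HNRNPA1P33, HNRNPA1P50 and HNRNPA1P57) and the 4 of RPS27 pseudogenes (RPS27P3, RPS27P4, RPS27P17 and RPS27P19). How the aligner placed reads that fit several copies was not stated, and its part in these peaks was not tested.

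A DRACH motif within 50 nt of the summit on the strand of the host gene was present in 200 of the 242 peaks (82.6%, 77.4 to 86.9%). The motif is short, and 85.0% of all noncoding exon tiles of that same length in the annotation held it, as did 82.7% of the tiles in the host genes themselves. On the opposite strand it was present in 202 peaks (83.5%, 78.3 to 87.6%). Coding exon peaks held it in 84.3% on the host strand and in 77.1% (74.7 to 79.4%) on the opposite strand. By class the motif was present in 30 of 33 lncRNA peaks (90.9%), 80 of 93 coding gene peaks (86.0%), 73 of 94 pseudogene peaks (77.7%) and 15 of 20 small RNA peaks (75%). The tile share lay within the interval of each class apart from the pseudogenes, where 87.8% of tiles held it against an upper bound of 84.9%. That interval treats near-identical copies as separate peaks. The 5 linked HNRNPA1 pseudogene peaks all lacked the motif, and the 3 linked RPL13A pseudogene peaks all held it. Whether the difference remains with each group of copies counted once was not tested.

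The number and the place of the motifs were also set beside the tiles. The mean was 1.76 motifs within 50 nt of the summit on the host strand, 1.90 on the opposite strand and 1.89 in all noncoding tiles. Where a motif was present, the nearest lay at a median of 15 nt from the summit, and in 74 of 200 peaks within 10 nt. In bins of 20 nt from 150 nt upstream to 150 nt downstream of the summit, the host strand held 82 motifs in the central bin and 74 to 108 in the other bins. The stricter form GGAC followed by A, C or T was present in 70 peaks (28.9%, 23.6 to 34.9%), against 23.6% of all noncoding tiles, 23.9% of the tiles in the host genes and 29.3% of coding exon peaks. The tile share over all genes lay at the lower bound of the interval. The median GC content of the 242 windows was 50%, against 51.5% for coding exon peaks and 42.6% for intron peaks.

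**Figure D3:**
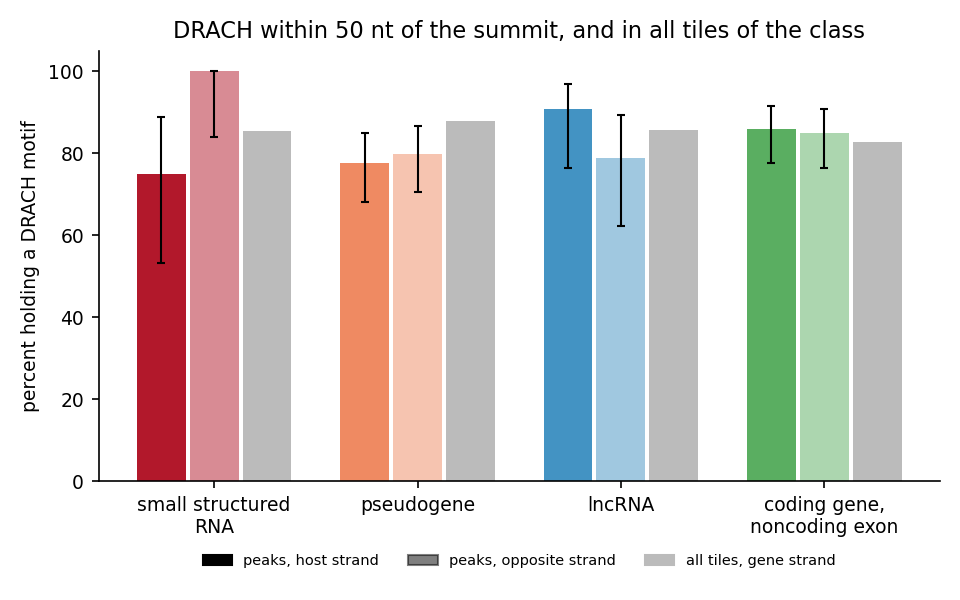
Percent of peaks with a DRACH motif within 50 nt of the summit on the host strand (full colour) and on the opposite strand (pale), with 95% Wilson intervals, beside the percent of all exon tiles of the same length and class that hold the motif on the gene's strand (grey). The host strand bars run from 75% to 90.9% and the tiles from 82.7% to 87.8%.

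To see which peaks were also found in METTL3-KD cells, overlaps of at least 1 bp were counted. Of the 242 peaks, 233 (96.3%, 93.1 to 98.0%) had no overlapping METTL3-KD peak, against a background of 99.3% over all 2298 control peaks. Only 16 control peaks had an overlap at all, of which 9 were in noncoding exons, 4 in coding exons and 3 in introns. By class, 15 of 20 small RNA peaks, 93 of 94 pseudogene peaks, 32 of 33 lncRNA peaks and 92 of 93 coding gene peaks had none. Outside the 7SL genes, 229 of 234 peaks had none (97.9%, 95.1 to 99.1%).

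The 9 overlapping peaks included the 4 strongest 7SL genes. The METTL3-KD pileup was 71 for RN7SL2, 59 for RN7SL3, 61 for RN7SL5P and 40 for RN7SL4P, and the METTL3-KD folds were 15.3, 32.2, 16.5 and 14.6. RN7SKP36 and NOB1, an endonuclease of ribosome maturation, had a pileup of 1 in both lists, and CDC20P1 had 2 in the control and 3 in METTL3-KD cells. ENSG00000274629 had 3 against 1 and ENSG00000279133 had 2 against 1. Pileups and folds depend on the number of distinct fragments in each pair of libraries, so these values were set side by side and not compared between conditions.

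The METTL3-KD list held 112 peaks in noncoding exons among 1084 outside the mitochondrial chromosome (10.3%, 8.66 to 12.3%), close to the control share of 10.5%. They comprised 40 peaks in coding genes, 31 in pseudogenes, 20 in small structured RNAs and 19 in lncRNAs. A pileup of 1 was found in 67.9% of them. Small structured RNAs made up 17.9% (11.9 to 26.0%) of these METTL3-KD peaks and 8.26% (5.41 to 12.4%) of the control peaks. These intervals treat each peak as separate, whereas near-identical copies were searched for the control peaks only. How many distinct sequences the METTL3-KD peaks stood for was not counted. Of the METTL3-KD peaks, 12 lay in snRNA genes and copies (RNU and RNVU symbols, U7 included), among them RNU1-1 and RNU1-3 with a pileup of 23 and RNVU1-18 with 21, all of the U1 snRNA that recognises the 5′ splice site. Under the same symbols the control list held 1 peak, with its summit at the end of the U7 copy RNU7-49P, and thus none in a spliceosomal snRNA. These snRNA genes together took 4.45% of the control input counts and 18.0% of the METTL3-KD input counts. Of the 235 control host genes and the 112 METTL3-KD host genes, 13 were shared (5.53% and 11.6%). Among these were NOL8, CYBC1 and RPL32P18 and all hosts of overlapping peaks apart from NOB1. The same share over the genes of all control peaks is not given here, so nothing particular to noncoding exons is read from it.

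To set the peaks beside the abundance of their hosts, the input reads of the host genes were read from the count table, which held 225 of the 235 hosts. The host had 0 reads in both control input lanes for 199 of 232 peaks (85.8%, 80.7 to 89.7%), and for 124 of these the METTL3-KD input had at least 1 read. By class the share was 25 of 25 lncRNA peaks, 85 of 93 pseudogene peaks (91.4%), 74 of 93 coding gene peaks (79.6%) and 14 of 20 small RNA peaks (70.0%), and it was 78.4% (76.0 to 80.6%) for coding exon peaks. Among all 63568 genes of the count table, 95.7% had 0 control input reads. Most hosts thus had no counted read in the control input, which held 9291 distinct positions. The peaks were called against this same input, so a low pileup could pass where input fragments were few. The share is therefore tied to the peak calling and is not read as a measure of abundance. How large that tie is was not tested. NORAD had 0 reads in both control lanes and 93 and 117 in the METTL3-KD lanes. RPS3AP6 had 0 in both control lanes and 314 and 369 in the METTL3-KD lanes. With 3 reads assumed over the control lanes, the scaled METTL3-KD reads were 332-fold higher for NORAD and 1080-fold higher for RPS3AP6. With total count scaling they were 124-fold and 402-fold higher. These values are not lower bounds and do not hold for molecules. They treat reads as independent, whereas the control input averaged 310 reads per distinct position.

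**Figure D4:**
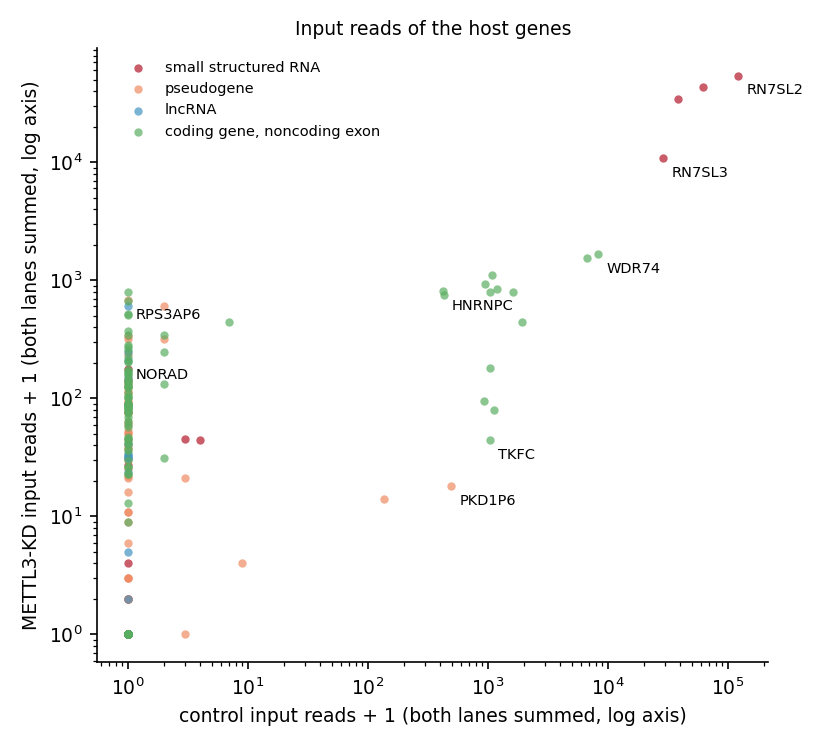
Input reads of each host gene in the control (x axis) and METTL3-KD (y axis) libraries, both lanes summed, with 1 read added and both axes logarithmic, coloured by class. Most hosts stand on the left edge with 0 control reads, and the 4 strongest 7SL genes stand at the upper right.

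Of the 135 hosts with at least 10 reads over both inputs, 119 had a log2 ratio of scaled reads, METTL3-KD over control, above 2 (88.1%), against a background of 79.2% of all 9931 genes with as many reads. Of these 119, 104 had 0 control reads and so could pass the minimum only through the METTL3-KD input. A log2 ratio under -2 was found for 2 hosts (1.48%), against a background of 7.2%. These counts compare the 2 input libraries, which differed in distinct positions as given above, and no result about the hosts is read from them.

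The 20 hosts with at least 10 control reads were chosen through the control input instead. Of these, 5 had a log2 ratio above 2, 13 lay between and 2 lay under -2, against 6.78% above 2 and 32.3% under -2 among all 2212 genes with at least 10 control reads. The share under -2 was 7.2% among the 9931 genes with at least 10 reads over both inputs. A minimum of control reads thus favours low ratios, and no result about the hosts is read from these ratios either. With total count scaling, none of the 20 lay above 2 and 5 lay under -2, against 2.85% and 56.9% of the 2212 genes. The most abundant hosts were RN7SL2, RN7SL5P, RN7SL4P, RN7SL3 and WDR74, with log2 ratios of 1.09, 1.74, 2.08, 0.83 and -0.06, which with total count scaling were -0.34, 0.32, 0.66, -0.60 and -1.49. For WDR74, a factor of ribosome biogenesis, the control lanes counted 4194 and 4035 reads and the METTL3-KD lanes 828 and 830.

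The 5 ratios above 2 were those of HNRNPC, an hnRNP protein that binds pre-mRNA (3.17), RPS20, a ribosomal protein (3.03), RPL10, SLC38A2 and RN7SL4P. With total count scaling HNRNPC had 1.75 and RPS20 1.61. After RN7SL4P, RPL10 and SLC38A2 had the most reads of these 5. RPL10, a ribosomal protein, had 544 and 540 control reads and 553 and 561 METTL3-KD reads (log2 ratio 2.28, or 0.86 with total count scaling). SLC38A2, an amino acid transporter, had 468 and 470 against 442 and 480 (2.22, or 0.80). The lanes of each library stayed close to each other for both genes. The lowest ratios of the 20 were those of TKFC, a triokinase, and of the pseudogene PKD1P6. TKFC had 508 and 524 control reads and 26 and 17 METTL3-KD reads (-2.32, or -3.72 with total count scaling). PKD1P6 had 238 and 258 against 8 and 9 (-2.57, or -3.93). The control input averaged 310 reads per distinct position and the METTL3-KD input 25.7, and how many fragments stood behind these counts was not tested.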

How the data were processed

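The authors removed rRNA reads with Bowtie2, aligned to hg19 with HISAT2 and used featureCounts for gene counts. The deposited counts are raw whole numbers, 1 column per input lane. Strand setting, annotation release and the handling of reads with several alignments are not given in the sources used here. Control input lanes summed to 1609215 and 1628753 reads and METTL3-KD lanes to 906240 and 926765. The authors called peaks with MACS2 2.1.1.20160309, m6A against input with lanes pooled, 100-bp extension and at most 1 read per position. The deposited pileup is a signal of fragments at the summit, the deposited fold is the ratio of pileup to local background, and the deposited −log10 column gives the q value. The header states a q cut-off of 0.05 and the methods 0.01.

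Summits were placed on GENCODE 44 lifted to GRCh37. The mitochondrial chromosome was left out because its sequence differs between hg19 and GRCh37. Copies were searched with megablast (BLAST 2.17.0, identity of at least 95% over at least 75% of the peak). DRACH was searched on both strands within 50 nt of the summit, and in consecutive tiles of that length of exons outside basic coding parts, or 1 centred tile for a shorter exon of a noncoding gene. Log2 ratios used lanes summed, TMM scaling (edgeR 4.0.16), a prior count of 2 and at least 10 reads. The calculation was also run on simulated counts with independent reads. That checks the calculation only, since reads of these inputs share few positions, and it does not bear on the ratios given here. Shares carry 95% Wilson intervals. Lists and members were chosen with earlier results of these data known.

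Named peaks were, per class, the 5 with the highest fold (ties by q, then position), peaks overlapping a METTL3-KD peak, hosts with 2 or more peaks, the 5 hosts with most control reads and the 3 with most reads beyond a log2 ratio of 2 each way, and members of the families given in the text. SSR4, CASP8, STAT2, ORC2, AKT2, MIR222HG, ENSG00000264701, TERC, HNRNPC, RPS20, NONO, PRMT5, MACF1, NOL8 and CYBC1 were named after their values were seen.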

Additional observations from a re-analysis of the deposited data

How the results depend on the processing

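No paired analysis was possible because the results come from no test and the lanes are runs of 1 library per group. Of 54 alternatives to the counts and shares given above, 41 stayed within 1.5 times the count or within the interval of the share, among them every one for the classes and for hosts without control reads. The number of peaks was 103 with a fold above 2, which drops those with a pileup of 1, and 149 with exons of basic transcripts only. The share without a METTL3-KD peak was 91.3% when any METTL3-KD peak in an exon of the same host counted. No background over all control peaks is given for that measure. The share with a pileup of 1 was 46.1% without small structured RNAs and pseudogenes. The DRACH share was 57.4% within 25 nt, 96.3% on either strand and 28.9% for GGAC followed by A, C or T. The share with copies was 14% for identical genome copies, an alternative chosen after seeing the data, as were those without 7SL genes, without copies and with each host once. Hosts above a log2 ratio of 2 numbered 78 without small structured RNAs and pseudogenes. Hosts under -2 numbered 5 with total count scaling, 5 beyond a log2 ratio of 1 and 1 without small structured RNAs and pseudogenes. Leaving out 1 lane gave 1 to 2 such hosts, and TKFC moved to -1.85 without the second lane. With total count scaling the median shift of all genes was -1.04 on the log2 scale. Among the 80 alternatives for the 20 hosts with control reads, 21 changed side or sign, and RPL10, SLC38A2, RN7SL4P, RPS20 and HNRNPC fell to 2 or less with total count scaling. Distinct fragments were few in relation to reads: most peaks rest on 1 or 2 fragments and most hosts have no control read.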
